A study of Mus musculus with 9 samples.

Results

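A set of 42 genes, of 18193 measured in Reissner's membrane of the adult mouse, is described here: their signal was lower after a day in culture than in fresh tissue, and lower again when dexamethasone was present. The set holds neutrophil and antigen-presentation genes such as Ltf and H2-Eb1, the teneurins Tenm2 and Tenm4, the basement membrane gene Frem1, the potassium channel subunit Kcne2 and the carbonic anhydrase Car3. It was chosen on the measured values themselves. Where a gene had several probe sets, the one with the greatest mean of log2(signal + 32) over the 9 arrays stood for it. A member needed a mean signal of 200 or more in fresh and in incubated tissue, a mean log2(signal + 32) at least 0.8 lower in incubated than in fresh tissue, and one at least 0.8 lower again with dexamethasone than without it. Of 8789 genes at that signal, 890 passed the culture threshold (10.1%), 218 passed the dexamethasone threshold (2.48%) and 53 passed both (0.603%). A fixed list of 12 genes was left out of the set, of which 11 had met the thresholds: the neutrophil genes S100a8, S100a9, Camp, Ngp and Chil3, and the genes Slc26a4, Kcnk2, Kcnj13, Cldn8, Aqp1 and Cndp1. The other left-out gene, Col3a1, was 0.44 higher in incubated than in fresh tissue.

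Reissner's membrane is the thin sheet in the cochlea that separates endolymph from perilymph, and it is built of an epithelial layer and a mesothelial layer. The membranes were dissected by hand from adult mouse cochleae. Fresh membranes went straight to RNA extraction, incubated membranes were kept as explants for 24 h with no drug, and the third group was kept for 24 h with dexamethasone, a synthetic glucocorticoid. The dose was 100 nM, although the labels of arrays B and C of the dexamethasone group write the unit as mM. Each group had 3 arrays, called A, B and C, hybridised from RNA of pooled membranes, so the errors and p-values below reflect only how far arrays of a group differ, perhaps for technical reasons, and not how far mice differ. The labels used here give no strain, sex or genotype. Fresh tissue is the starting state and had no culture, so the dexamethasone group differs from it in both culture and drug.

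Glucocorticoids bind a receptor in the cytoplasm that moves to the nucleus, where it raises some genes through DNA elements made of a repeated hexamer and lowers others, among them many inflammatory genes. In the cochlea they are used against inflammation and sudden hearing loss, and they also act on ion transport by the epithelia that line the endolymph. An explant is cut off from blood supply, from the cell bodies of its nerve fibres and from the steroids of the circulation. In bulk tissue, fewer cells of a type and less RNA per cell cannot be told apart.

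The arrays of a group were alike, with pairwise Pearson correlations between 0.984 and 0.989 over probe sets. In fresh tissue 39.4% of probe sets had a signal of 200 or more, against 36.0% to 36.4% in incubated tissue and 37.4% to 37.7% with dexamethasone. In limma (Benjamini-Hochberg adjusted p under 0.05), 7593 of 18913 tested probe sets were lower in incubated than in fresh tissue (40.1%) and 6620 were higher (35%). Dexamethasone against incubated tissue gave 4820 lower (25.5%) and 5116 higher (27.1%). These splits depend on scaling: with each array centred on its median, 4461 were lower and 10110 higher in culture, and 6953 were lower and 3464 higher with dexamethasone. Scaling to the hybridization controls gave 4274 lower and 9942 higher in culture, and 13572 lower and 1260 higher with dexamethasone. The median tested probe set stood at -0.05 in culture and 0.01 with dexamethasone as deposited, at 0.28 and -0.11 after median centring, and at 0.27 and -0.45 on the hybridization controls. All 42 genes stayed lower in both steps under each of these scalings. That says little, because members were chosen for falls larger than the shifts of the median between scalings. Meeting the thresholds could fail: 25 of the 42 still met them after median centring, and 25 on the hybridization controls.

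The tissue label was set against marker genes. Of 12 epithelial markers, 10 had a mean signal of 200 or more in each group, and their summed signal was 39170 to 40521 in fresh, 80262 to 83920 in incubated and 92108 to 97310 in dexamethasone arrays. Of 20 fibroblast and mesothelium markers, 12 were at 200 or more in fresh tissue. Genes listed as markers of other cell types were present too. In fresh tissue 16 of 19 neutrophil granule, 14 of 14 inner ear fibrocyte and 13 of 14 neuronal genes were at 200 or more. So were 8 of 11 erythroid, 8 of 11 supporting cell, 8 of 11 Schwann and glia and 10 of 16 macrophage genes. Strial marginal, bone and hair cell lists had 7 of 10, 7 of 14 and 4 of 10. Endothelial, pericyte, melanocyte and B lymphoid lists had 8 of 20, 6 of 12, 5 of 11 and 3 of 13. The share over all probe sets, not only the brightest per gene, was 39.4%. Whether the membrane's own cells express some of these genes was not tested. No listed marker was at 0 in any group.

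The 42 genes spanned a wide range of level and of loss. Mean signal ran from 502 to 19230.5 in fresh tissue (median 1782), from 229 to 7529 in incubated tissue (median 671) and from 50.2 to 3349 with dexamethasone (median 307). The culture difference in mean log2(signal + 32) ran from -4.60 to -0.83, with a median of -1.20, and the dexamethasone difference from -2.09 to -0.80, with a median of -0.94. Over all 10242 tested genes the medians were -0.04 and -0.03. In dexamethasone tissue the members held 1.77% to 29.2% of their fresh signal (median 19.0%). The culture step was the larger one in 35 genes and the dexamethasone step in 7, and both steps were at or past -1, a halving on this scale, in 18. These values chose the genes, so they carry no test and support nothing by themselves.

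**Figure D1:**
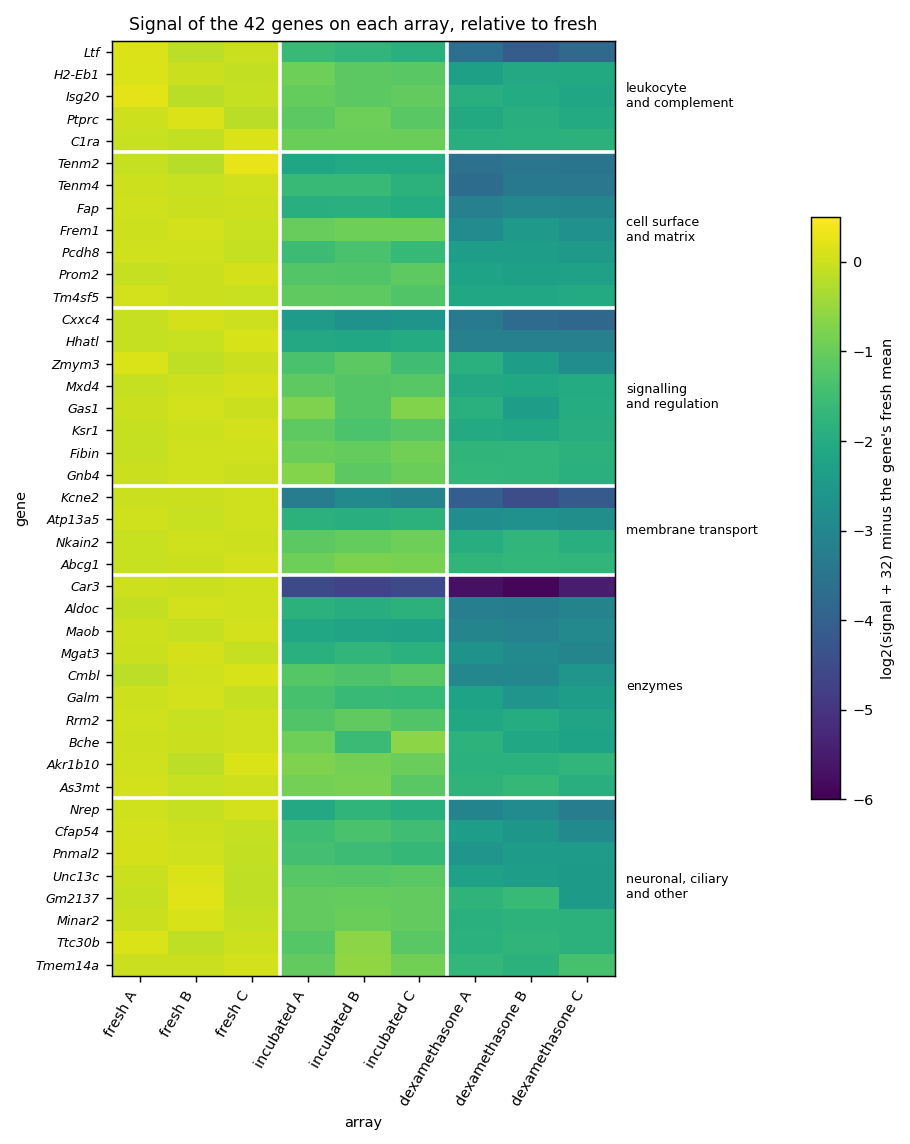
Colour gives log2(signal + 32) of each of the 42 genes (rows) on each of the 9 arrays (columns) minus the gene's mean over the 3 fresh arrays, with white lines between groups of arrays and roles. Car3 has the darkest dexamethasone cells, with a dexamethasone minus fresh difference of -5.70, and Tmem14a the smallest total fall, at -1.63.

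On every member the 3 incubated arrays lay below the 3 fresh arrays, and the 3 dexamethasone arrays lay below the 3 incubated arrays. Over all tested probe sets 41.1% had incubated arrays all below fresh ones and 29% had dexamethasone arrays all below incubated ones, and since the rule used both contrasts nothing is read from the members' count. In 14 members all 3 dexamethasone arrays were under 200, the working floor of these arrays, and there the second fall is a bound only: the incubated mean divided by 200. In 3 others, Gm2137, Zmym3 and Tmem14a, 2 dexamethasone arrays were under 200, and in the remaining 25 none was. Adding 32 before taking logs also makes the fall of dim genes look smaller than the ratio of their signals. The dexamethasone and culture steps share the incubated arrays, so an incubated array that reads high or low moves both.

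**Figure D2:**
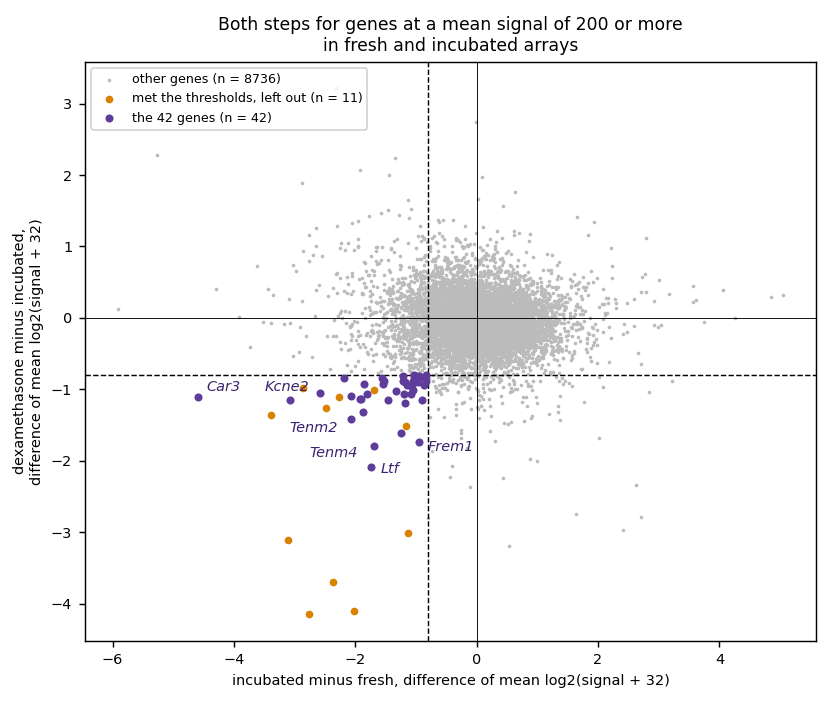
Each point is a gene with mean signal of 200 or more in fresh and incubated tissue (8789 genes): the horizontal axis is incubated minus fresh and the vertical axis dexamethasone minus incubated, both as differences of mean log2(signal + 32), with dashed lines at the thresholds of -0.8. The 42 genes fill the lower left corner, Car3 far left at -4.60 and Ltf lowest at -2.09, and 11 left-out genes lie in the same corner, the lowest of them S100a9 at -4.15.

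The promoters of members that fell together were searched for motifs, with RefSeq sequence from build GRCm38.p6 covering 250 bases before to 50 bases after each start site. Of the 42 genes, 31 were in the table, with 42 promoters, since some genes have several start sites. No member promoter held the full glucocorticoid response element, in a strict or a looser form, on either strand, which 0.01% and 0.06% of all 32851 promoters held. The hexamer AGAACA, 1 arm of that element, short and therefore common, was in 9 of the 42 promoters (21.43%) against 18.97% of all promoters. The inverted repeat element linked to repression by the receptor, with or without a spacer base, was in no member promoter, against 0.74% and 0.32% of all. AP-1 sites (TGANTCA) were in 2 member promoters (4.76% against 7.81% of all), the E-box CACGTG in 1 (2.38% against 7.15%) and TATAAA in 2 (4.76% against 13.62%). These are matches of letters in a short window, with shares near or below those of all promoters, and say nothing of binding.

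Promoters with the hexamer in capitals are shown for 3 members whose values are given below: Tenm4 and Frem1, which had the lowest dexamethasone differences of the cell surface and matrix genes, and Kcne2, which had the lowest culture difference of the transport genes. Each run is the 250 bases before the start site, 5′ to 3′ on the gene's strand. The Tenm4 promoter is chr7:96170994-96171243 on the plus strand, with the match beginning at -196 from the start site. The Frem1 window is chr4:83021103-83021352 on the minus strand, from a start site inside the annotated gene, and its match, at -66, lies on the opposite strand and so reads TGTTCT. The Kcne2 window is chr16:92295366-92295615 on the plus strand, also from a start site inside the annotated gene, with the match at -121.
Tenm4: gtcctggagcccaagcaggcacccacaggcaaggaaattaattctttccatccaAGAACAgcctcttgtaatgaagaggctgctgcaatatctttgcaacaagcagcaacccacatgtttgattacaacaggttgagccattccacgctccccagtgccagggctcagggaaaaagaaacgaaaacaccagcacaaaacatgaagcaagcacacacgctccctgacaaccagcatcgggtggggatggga
Frem1: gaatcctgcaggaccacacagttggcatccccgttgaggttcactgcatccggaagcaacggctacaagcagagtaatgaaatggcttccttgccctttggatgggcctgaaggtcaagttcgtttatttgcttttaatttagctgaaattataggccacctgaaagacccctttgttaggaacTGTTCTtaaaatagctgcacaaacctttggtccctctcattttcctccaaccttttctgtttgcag
Kcne2: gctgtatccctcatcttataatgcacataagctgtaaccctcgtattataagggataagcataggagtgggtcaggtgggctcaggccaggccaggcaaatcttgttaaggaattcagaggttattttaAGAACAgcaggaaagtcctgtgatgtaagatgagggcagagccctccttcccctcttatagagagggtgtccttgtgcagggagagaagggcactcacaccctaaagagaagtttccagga

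Leukocyte and complement genes made up 5 of the 42: Ltf, H2-Eb1, Isg20, Ptprc and C1ra. Their culture differences ran from -1.73 to -0.96 and their dexamethasone differences from -2.09 to -0.90. Ltf encodes lactotransferrin, the iron-binding protein of neutrophil secondary granules and of glandular secretions. Its signal was 1256, 1015 and 1114 on fresh arrays A, B and C, 348, 318 and 283 on incubated arrays and 60.9, 35.9 and 53.9 on dexamethasone arrays. It had the lowest dexamethasone difference of all members, -2.09 ± 0.16 (SE, 3 arrays a group), after a culture difference of -1.73 ± 0.12, and no arrays of neighbouring groups overlapped. Since all dexamethasone arrays were under 200, the second fall is at least 1.58-fold.

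H2-Eb1, the beta chain of an MHC class II molecule that presents peptides to helper T cells, read 2016, 1786.5 and 1697 in fresh, 938, 818 and 797 in incubated and 346, 409.9 and 413 in dexamethasone tissue. The 2 steps were nearly equal, -1.08 ± 0.10 and -1.07 ± 0.10, and array A was the highest of its group in fresh and incubated tissue and the lowest with dexamethasone. Ptprc encodes CD45, the tyrosine phosphatase on nucleated blood cells. Its signal went from 822, 929.6 and 731 to 359.6, 418 and 349.6 and then to 173, 191 and 179, differences of -1.07 ± 0.12 and -0.93 ± 0.08. The groups did not overlap, but every dexamethasone array was under 200, which leaves a fall of at least 1.88-fold for the drug step.

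Isg20, an interferon-stimulated RNA exonuclease, was dim throughout. It read 631.5, 475 and 513, then 244, 226.5 and 240.2, then 116, 111 and 95.5, with differences of -1.08 ± 0.12 and -0.95 ± 0.07, and with a second fall of at least 1.18-fold against the floor. Fresh array A was its highest value. C1ra, a protease of the complement C1 complex, was named after its values were seen, because its incubated arrays were the tightest of this group at 602, 606 and 612, against 1163, 1139 and 1339.7 in fresh and 299, 309 and 321 in dexamethasone tissue.

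Genes on related lists did not all take the same course. Of 10 other tested neutrophil granule genes, 8 were lower and 2 higher in incubated than in fresh tissue in limma (median -1.71), and with dexamethasone 4 were lower, 2 higher and 4 not past the test (median 0.18, turning to -0.23 on the hybridization controls). With Ltf and the 5 left-out genes kept in, all 16 tested genes gave 14 lower and 2 higher in culture (median -1.97) and 10 lower and 2 higher with dexamethasone (median -1.10), although those 6 were chosen for falling in both steps. Of the left-out genes S100a9, S100a8 and Ngp had drug steps of -4.15, -4.11 and -3.70. These counts stand beside 40.7% of 10242 genes called lower and 36% higher in culture, and 28.7% lower and 22.3% higher with dexamethasone. The summed signal of all 19 neutrophil genes was 42000 to 44714 in fresh, 18270 to 18586 in incubated and 19885 to 20834 in dexamethasone arrays. The number of them at a mean of 200 or more went from 16 to 9 to 3. Ltf and the 5 left-out genes were not among these 3, with dexamethasone means of 6.53 to 97.2. The sum with dexamethasone therefore rests on other genes of the list and does not show the course of those 6. The 4 other genes called lower with dexamethasone, Mmp9, Cd177, Mpo and Pglyrp1, had drug differences of -2.24, -1.43, -0.85 and -0.56. They were lower in culture too. Every incubated array of Mmp9 was already under 200, with a mean of 145. Ltf and the 5 left-out genes were 6 of the 9 genes at 200 or more in incubated tissue. Floor-level signal may thus enter the drug differences of Cd177, Mpo and Pglyrp1, and they are not read as a measured second fall. The 2 called higher were Lcn2 and Anxa1, which other cells also express. Of the 4 called lower and these 2, all but Mmp9 are named after their values were seen. The part of these other leukocyte markers in the fall of Ltf was not tested.

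Macrophage markers, by contrast, were not lower in culture as a list: of 11, 1 was lower and 7 higher (median 0.25), with a summed signal of 9710 to 10979.9 in fresh, 11160.4 to 11603 in incubated and 11591 to 11850.1 in dexamethasone arrays. With dexamethasone 2 were lower and 4 higher (7 lower and 1 higher on the hybridization controls). Among them the complement component C1qb rose by 0.93 ± 0.08 (adjusted p = 1.02e-06, limma), and the surface receptor Adgre1 fell by 0.88 ± 0.10 (adjusted p = 1.04e-05, limma). Complement, MHC and interferon genes other than H2-Eb1 and C1ra were mostly higher in culture, 10 of 16, and mostly lower with dexamethasone, 12 of 16, with medians of 0.56 and -0.54. The MHC class II genes H2-Aa and H2-Ab1 lay lower in both steps, as H2-Eb1 did. Their culture differences were -0.59 and -0.53 and their drug differences -0.84 and -0.93. Cd74 had differences of -0.48 in culture and 0.05 with the drug. H2-Aa, H2-Ab1 and Cd74 are named after their values were seen. The interferon-induced Ifit3 went from a mean of 691 in fresh to 3824.5 in incubated and 461 in dexamethasone tissue, so that it rose in culture where H2-Eb1, Isg20 and C1ra lay lower; its drug step was -2.97 ± 0.08 (adjusted p = 1.25e-10, limma).

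Cell surface and matrix genes were 7: Tenm2, Tenm4, Fap, Frem1, Pcdh8, Prom2 and Tm4sf5. The culture differences ran from -2.08 to -0.96 and the dexamethasone differences from -1.79 to -0.89. Teneurins are large transmembrane proteins that bind partners such as latrophilins on neighbouring cells. Tenm4 read 5609.6, 5409.7 and 5744 in fresh tissue, 1785, 1796 and 1546 in incubated tissue and 399, 513 and 503 with dexamethasone. Its steps were -1.69 ± 0.07 and -1.79 ± 0.13, and all of its arrays stayed above the floor, so this was a measured loss to 8.44% of the fresh signal. Dexamethasone array A was the lowest, and no groups overlapped.

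Tenm2 started lower, at 1965, 1783 and 2494, and read 432.5, 479.7 and 477 after incubation and 143, 159.9 and 157 with dexamethasone. Fresh array C stood above the other fresh arrays, and the incubated and dexamethasone arrays were each close together. The steps were -2.08 ± 0.15 and -1.42 ± 0.06; with every dexamethasone array under 200, the second is a fall of at least 2.32-fold. Fap, a serine protease of the surface of activated fibroblasts, was among the brighter members. It read 8934, 8636 and 8841, then 2347, 2393 and 2197, then 955, 1075 and 1064. Its errors were small, with steps of -1.91 ± 0.04 and -1.14 ± 0.06.

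Frem1 encodes an extracellular matrix protein that works with FRAS1 and FREM2 to hold epithelium to the tissue beneath. Its arrays read 2118, 2195 and 2058 in fresh, 1043, 1089.7 and 1102 in incubated and 263, 351 and 296 in dexamethasone tissue. It was the member in which the drug step took the largest part of the whole log2 fall, 64.4%, with -0.96 ± 0.04 in culture and -1.73 ± 0.11 with dexamethasone. The groups did not overlap and no array was under 200. The other 3, the protocadherin Pcdh8, the prominin Prom2 and the tetraspanning protein Tm4sf5, had culture differences of -1.52, -1.20 and -1.14 and dexamethasone differences of -0.89, -1.07 and -0.93. All dexamethasone arrays of Pcdh8 were under 200, so its second fall is a bound of at least 1.70-fold.

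**Figure D3:**
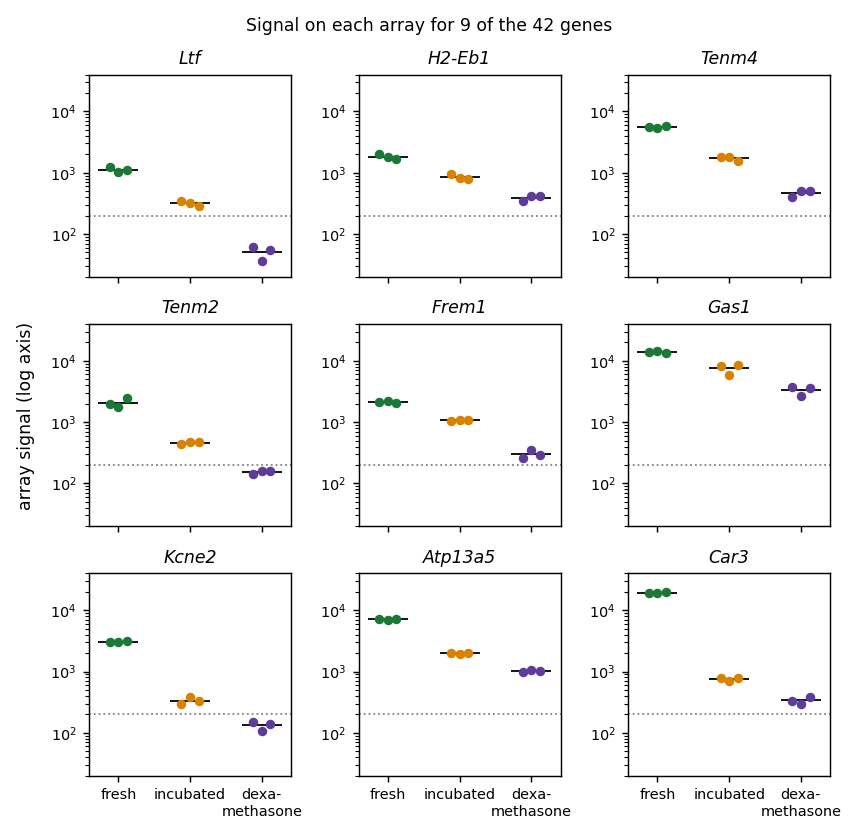
Points are the signal on each array, on a log axis, for 9 of the 42 genes, with a bar at the mean of the 3 arrays of a group and a dotted line at the working floor of 200. Ltf, Tenm2 and Kcne2 lie under the floor on all dexamethasone arrays, whereas Frem1, with most of its fall in the drug step, stays above it.

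Other matrix genes went both ways. Of 25 proteoglycans and matrix glycoproteins, 15 were lower and 8 higher in culture, and with dexamethasone 9 were lower and 8 higher (15 lower and 7 higher on the hybridization controls). Epyc, a small leucine-rich proteoglycan, rose with dexamethasone by 2.28 ± 0.13 after a culture difference of -5.27 ± 0.13 (adjusted p = 4.93e-08 and 3.04e-12, limma). Tenascin C (Tnc) was lower with dexamethasone (adjusted p = 5.65e-06, limma), at a mean of 70.2 against 272 in incubated and 51.3 in fresh tissue, and only the incubated arrays were above 200. Of 15 matrix proteases and inhibitors, 8 were lower and 5 higher in culture, which turned to 4 lower and 7 higher on the hybridization controls and to 5 lower and 7 higher after median centring. With the drug 6 were lower and 2 higher (13 lower and none higher of 14 on the hybridization controls). Mmp9, a gelatinase of neutrophil granules and other cells, had the largest drug step of this list, with means of 324 in fresh, 145 in incubated and 5.67 in dexamethasone tissue. It was lower in both steps, as Fap was (adjusted p = 3.34e-05 and 1.46e-07, limma), but every incubated array was already under 200. Htra1, a secreted serine protease, went from a mean of 1246 to 4338 and then to 1893. Its drug step was -1.18 ± 0.06 (adjusted p = 1.52e-08, limma), after a rise in culture.

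Among signalling and regulatory genes there were 8: Cxxc4, Hhatl, Zmym3, Mxd4, Gas1, Ksr1, Fibin and Gnb4. Cxxc4 encodes a zinc finger protein that binds Dishevelled and restrains Wnt signalling. Its fresh signals of 1615, 1792.5 and 1690.0 went to 289, 238 and 248 in culture and 142, 99.4 and 88.7 with dexamethasone. The culture step of -2.58 ± 0.09 was the lowest of this group. The drug step read -1.04 ± 0.18, but with all arrays under 200 it is a fall of at least 1.29-fold.

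Hhatl resembles the enzyme that attaches palmitate to Hedgehog proteins. It read 6027, 6106 and 6732 in fresh, 1458, 1410.0 and 1543 in incubated and 674, 668 and 669.5 in dexamethasone tissue, with its dexamethasone arrays almost level. The steps were -2.07 ± 0.06 and -1.10 ± 0.04. Gas1, a membrane-anchored co-receptor for Hedgehog proteins, was the brightest member after culture and with dexamethasone, and was named after its values were seen. It read 13825, 14466.5 and 13669, then 8276, 5869 and 8444, then 3772, 2719 and 3557, and array B was the lowest in both cultured groups. Its steps were -0.91 ± 0.17 and -1.16 ± 0.22, with overlapping errors.

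Zmym3, a zinc finger protein of histone deacetylase complexes, had the widest dexamethasone spread of the group. Its arrays read 1238, 1031.5 and 1098 in fresh tissue, 413, 493 and 378 after incubation and 285, 192 and 131 with dexamethasone, where array A was the highest and array C the lowest. Its drug step was -1.02 ± 0.30 after -1.33 ± 0.13 in culture. Mxd4, which competes for the partner protein Max and represses growth genes, read 3489.8, 3707 and 3876, 1694, 1554.5 and 1594 and 851, 819 and 893. Its steps were -1.18 ± 0.06 and -0.89 ± 0.05, with little spread. The kinase scaffold Ksr1, the secreted protein Fibin and the G protein subunit Gnb4 had culture differences of -1.22, -0.95 and -0.93 and dexamethasone differences of -0.82, -0.81 and -0.83. All dexamethasone arrays of Gnb4 were under 200, so its second fall is a bound of at least 1.25-fold.

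The Wnt pathway list, which adjoins Cxxc4, had 15 of 20 genes lower and 4 higher in culture (median -0.86). After median centring 12 of 20 were lower in culture, and on the hybridization controls 11 of 19. With dexamethasone 7 were lower and 7 higher (14 lower and 3 higher of 19 on the hybridization controls). Its largest drug steps were in Sfrp4, a secreted Wnt antagonist, which fell by 1.47 ± 0.10 (adjusted p = 2.3e-07, limma), and Fzd4, a Wnt receptor, which rose by 1.47 ± 0.09 (adjusted p = 1.39e-07, limma). Fibroblast and mesothelium markers other than Gas1 were lower in culture in 11 of 13 (9 after median centring, 7 on the hybridization controls). With dexamethasone 3 were lower and 6 higher (6 lower and 4 higher on the hybridization controls). The summed signal of that list, Gas1 included, was 93905 to 96986 in fresh, 39849.5 to 46698 in incubated and 49272 to 52910.5 in dexamethasone arrays. Of its 20 genes, 12 had a mean of 200 or more in fresh, 8 in incubated and 10 in dexamethasone tissue. The part of these markers in the fall of Gas1 was not tested. Apod, a secreted lipid carrier on that list, was higher with dexamethasone than without it by 1.26 ± 0.04 (adjusted p = 9.4e-10, limma).

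Membrane transport genes were Kcne2, Atp13a5, Nkain2 and Abcg1. Kcne2 is an accessory subunit that sets the gating of voltage-gated potassium channels such as KCNQ1. It read 3026, 3008 and 3117 in fresh tissue, 290.0, 383 and 331 in incubated tissue and 152.5, 107 and 140.3 with dexamethasone. Culture took most of the signal, with a step of -3.08 ± 0.11, a 9.12-fold ratio of means. The drug step was -1.15 ± 0.16, and against the floor it is at least 1.67-fold.

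Atp13a5, a P-type ATPase of the membrane, was one of the brighter and tighter members. It read 7304, 7021 and 7296, then 2005, 1900.2 and 2022, then 1001, 1066 and 1013.5, with steps of -1.85 ± 0.03 and -0.92 ± 0.04. None of its arrays was under 200. Nkain2 encodes a protein that interacts with the beta subunit of the sodium pump. Its signals were 2157, 2249 and 2239 in fresh, 995, 1058 and 1136 in incubated and 553, 655 and 562 in dexamethasone tissue, steps of -1.04 ± 0.06 and -0.82 ± 0.09. Abcg1, which moves cholesterol to lipoproteins, read 1381, 1405.5 and 1489.7, then 731, 821 and 798, then 405, 414 and 409. Its -0.84 ± 0.06 in culture lay close to the threshold, and the drug step was -0.88 ± 0.05.

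Of 8 potassium and chloride channel and transporter genes that were neither members nor left out, all 8 were lower in culture (median -1.60), and 6 of them after median centring or on the hybridization controls; with dexamethasone 2 were lower and 3 higher (3 lower and 2 higher on the hybridization controls). With the 3 left-out genes of that list kept in, 5 of 11 were lower and 3 higher with dexamethasone. Kcnk1, a potassium channel of the background leak type, rose with dexamethasone by 1.10 ± 0.06, from a mean of 1824 to 3951 (adjusted p = 4.74e-08, limma). The left-out channels Kcnk2 and Kcnj13 met the same thresholds as Kcne2, with drug steps of -1.26 and -1.11. Sodium transport genes were lower in culture in 14 of 17 (10 after median centring or on the hybridization controls). With dexamethasone 8 were higher and 4 lower (3 higher and 11 lower on the hybridization controls). Wnk4, a kinase that regulates salt transport, had the largest drug step of that list, with means of 2032 in fresh, 249.3 in incubated and 999 in dexamethasone tissue, a rise of 1.88 ± 0.10 (adjusted p = 2.17e-08, limma). Scnn1a, the alpha subunit of the epithelial sodium channel, went from a mean of 1982 in fresh to 918 in incubated and 2692 in dexamethasone tissue, a drug step of 1.52 ± 0.06 (adjusted p = 4.29e-09, limma), opposite in sign to the steps of Kcne2, Atp13a5 and Nkain2.

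The largest group was the 10 enzymes: Car3, Aldoc, Maob, Mgat3, Cmbl, Galm, Rrm2, Bche, Akr1b10 and As3mt. Car3 is a cytosolic carbonic anhydrase of low activity, listed here among inner ear fibrocyte markers. It was the brightest member in fresh tissue, at 19232, 18795 and 19664, and read 799, 710.1 and 778.5 after incubation and 334, 295 and 389.9 with dexamethasone. Its culture step of -4.60 ± 0.05 was the lowest of the 42 and its drug step was -1.10 ± 0.12, only 19.3% of the whole log2 fall. Dexamethasone tissue held 1.77% of the fresh signal, and its arrays stayed above the floor.

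Aldoc, an aldolase of glycolysis, read 5264, 5802 and 5743 in fresh tissue, 1557, 1424 and 1547 in incubated tissue and 574, 562 and 633 with dexamethasone. The steps were -1.87 ± 0.06 and -1.31 ± 0.06. Maob, the mitochondrial monoamine oxidase, went from 3679, 3520.2 and 3812 to 831, 764 and 745 and then to 419, 394 and 454. Most of that fall came in culture, -2.19 ± 0.06, against -0.84 ± 0.07 with the drug. Mgat3 adds the bisecting N-acetylglucosamine to N-glycans. It read 1409, 1494 and 1355, then 366, 405 and 373, then 198, 160.4 and 143, steps of -1.81 ± 0.06 and -1.06 ± 0.12, the second at least 1.91-fold.

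The other 6 enzymes had culture differences from -1.55 to -0.87 and dexamethasone differences from -1.61 to -0.83. Cmbl, a hydrolase named after its values were seen for the lowest drug step of the enzymes, read 521, 602 and 635, then 232, 216 and 238, then 45.6, 47.2 and 69.1. It was the dimmest member after incubation, so its second fall is only bounded, at 1.14-fold or more. Bche, a cholinesterase, was the one member with an incubated array under 200, array B. It read 262, 156 and 332 in incubated tissue against 535, 517 and 537 in fresh and 131, 96.4 and 87.5 in dexamethasone tissue, and its errors were the largest of the 42, with a culture step of -1.05 ± 0.28 and a drug step of -1.003 ± 0.31. Bche was likewise named after its values were seen, as was Rrm2, the small subunit of ribonucleotide reductase, which read 718, 683 and 718, then 274, 313 and 278, then 141, 156 and 129. Every dexamethasone array of Bche and Rrm2 was under 200, so their second falls are at least 1.25-fold and 1.44-fold.

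Cell cycle genes other than Rrm2 were split in culture: of 11, 7 were higher and 4 lower (median 0.91), and with dexamethasone 8 were lower and none higher (median -0.55), which was 11 lower on the hybridization controls. Mki67, the marker of proliferating cells, and Top2a, a topoisomerase, were lower in both steps, with culture differences of -4.07 and -1.63. Their drug differences were -0.49 and -0.55 (adjusted p = 0.00916 and 0.00881, limma), and both are named after their values were seen. Of 20 listed cell cycle genes, Rrm2 included, only 9 had an incubated mean of 200 or more. Floor-level signal may thus enter the drug differences of Mki67 and Top2a, and they are not read as a measured second fall. Ccne1, a cyclin of the start of DNA replication with the largest drug step of the list, went from a mean of 264 to 522 and then 251, a drug step of -1.01 ± 0.18 (adjusted p = 0.000554, limma). The replication helicase gene Mcm2 went from a mean of 536 to 1648 and then 837, a drug step of -0.96 ± 0.10 (adjusted p = 1.09e-05, limma). Inner ear fibrocyte genes other than Car3 were all 13 lower in culture (median -3.35; 12 lower and 1 higher after median centring or on the hybridization controls), and with dexamethasone 7 were higher and 3 lower (5 higher and 4 lower on the hybridization controls). Cpxm2, a carboxypeptidase-like protein with the largest drug step of that list, had means of 720 in fresh, 69.0 in incubated and 274 in dexamethasone tissue (adjusted p = 1.57e-06 for the drug step, limma). Coch, the abundant cochlear matrix protein, went from a mean of 15914 in fresh to 152 in incubated and 405 in dexamethasone tissue, and Pou3f4, a transcription factor of cochlear mesenchyme, from 1356 to 612 and then 1674. Every incubated array of Coch and Cpxm2 was under 200, so the size of their drug steps is uncertain. The summed signal of the 14 fibrocyte genes with Car3 was 100698 to 105455 in fresh, 19167 to 20131 in incubated and 16352 to 17568 in dexamethasone arrays. Of these 14 genes, 6 had a mean of 200 or more in incubated and 10 in dexamethasone tissue. The sums in culture therefore rest on part of the list and do not show its course. The culture count includes genes tested through their fresh arrays alone. The part of these markers in the fall of Car3 was not tested.

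The last 8 genes were neuronal, ciliary or of other kinds: Nrep, Cfap54, Pnmal2, Unc13c, Gm2137, Minar2, Ttc30b and Tmem14a. Nrep, a small intracellular protein first described in regenerating neurons, read 3944, 3658 and 4006 in fresh, 894, 1122 and 987 in incubated and 436, 505 and 377 in dexamethasone tissue. Its steps were -1.92 ± 0.10 and -1.13 ± 0.15, with groups well apart. Cfap54, a protein of the axoneme of motile cilia, read 895, 864 and 824, then 280.2, 314 and 284.5, then 138, 120.5 and 88.1. Its drug step of -1.15 ± 0.16 is a fall of at least 1.46-fold, after -1.46 ± 0.06 in culture.

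Pnmal2, of the paraneoplastic Ma antigen family, read 1922, 1844 and 1688 in fresh, 652, 602 and 549 in incubated and 272, 314 and 317 in dexamethasone tissue. The steps were -1.55 ± 0.09 and -0.93 ± 0.09. Unc13c primes synaptic vesicles for release. It read 624, 698 and 579.6, then 259, 253 and 267, then 105, 94.8 and 88.9; its steps were alike at -1.19 ± 0.08 and -1.19 ± 0.06, the second bounded at 1.30-fold or more. In Ttc30b, a gene of transport along cilia named after its values were seen, incubated array B read 957 against 629 and 647 on the other incubated arrays, still below every fresh array.

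Neuronal markers, none of which was a member, were lower in culture in 11 of 12 (median -3.11), and with dexamethasone 2 were lower, 1 higher and 9 not past the test (6 lower and 1 higher on the hybridization controls). Of 14 such markers on the arrays, 2 had a mean of 200 or more in incubated tissue and 0 with dexamethasone. The drug counts therefore come mostly from signals under the floor and cannot show an absence of change. Most of these genes could enter the test only through their fresh arrays, so the culture count is in large part fixed by that filter. Their summed signal was 25438 to 26652 in fresh, 890.0 to 960.3 in incubated and 705 to 794 in dexamethasone arrays. The neurofilament genes Nefh and Nefl, with fresh means of 3318 and 6474, were under 200 on all arrays of both cultured groups. Gap43, a growth cone protein, was not lower in culture, with means of 295 in fresh and 305 in incubated tissue, and had a mean of 121 with dexamethasone, a drug difference of -1.15 ± 0.13 (adjusted p = 1.64e-05, limma). That is close in size to the drug step of Nrep, and it is bounded by the floor, as every dexamethasone array was under 200. The part of neuronal markers in either step of Nrep and Unc13c was not tested.

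**Figure D4:**
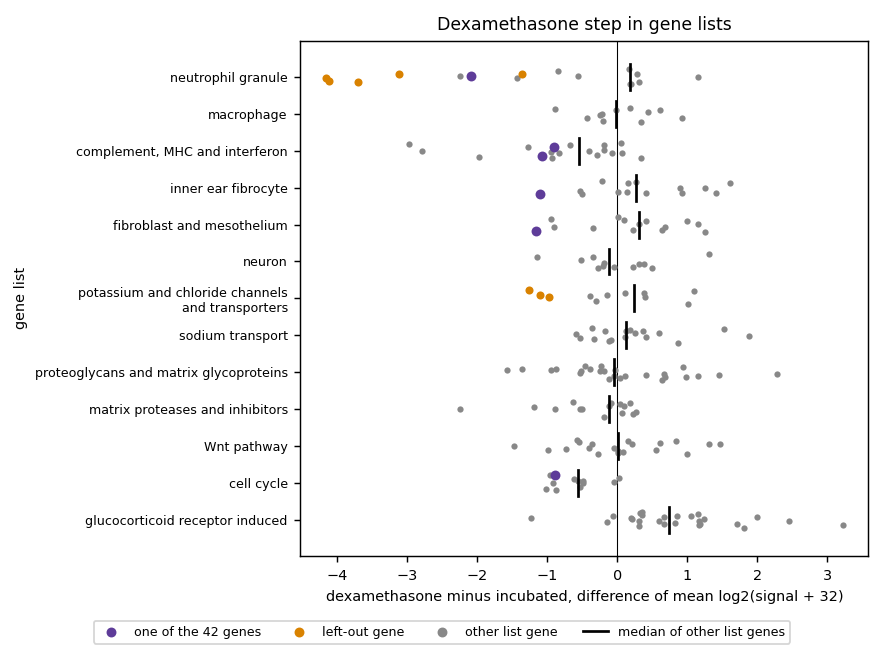
Each point is a tested gene of a list, placed by its dexamethasone minus incubated difference of mean log2(signal + 32): members in purple, left-out genes in orange, other genes in grey, and a bar at the median of the grey points. The glucocorticoid receptor induced list lies mostly to the right, with a median of 0.74, and the complement, MHC and interferon and cell cycle lists to the left, at -0.54 and -0.55.

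Known targets of the drug were read on the same arrays. Of 26 genes listed as induced by the glucocorticoid receptor, 23 rose with dexamethasone and 2 fell (12 rose and 7 fell of 25 on the hybridization controls), and 14 had been lower and 7 higher in culture (12 and 12 on the hybridization controls). Fkbp5, a co-chaperone of the receptor, had means of 947 in fresh, 325 in incubated and 1389 in dexamethasone tissue, a drug step of 1.99 ± 0.10 (adjusted p = 2.3e-08, limma). Zbtb16, a transcription factor induced by steroids, had the largest drug step of the list and went from 3261 to 629.6 and then to 6087.5. Sult1a1, a sulfotransferase, went from 1789 to 67.9 and then to 511. None of the 42 genes is on that list.

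A second reading of many members came from other probe sets for the same gene, which share the arrays and therefore serve as a description. Of the 42 genes, 26 had 1 or more other probe sets, 46 in all. In 23 of these, from 18 genes, the fresh mean was 200 or more: all 23 were lower in incubated than in fresh tissue, 18 of them by 0.8 or more, and 20 were lower again with dexamethasone. They were kept for their fresh signal and belong to genes chosen for these falls, so the counts support nothing by themselves. Over all tested probe sets limma called 40.1% lower in culture and 25.5% lower with dexamethasone, a stricter measure than sign. Where the incubated mean was under 200, the drug step is read at the floor. Among the 12 probe sets that were at 200 or more in fresh and incubated tissue, 11 were lower in both steps and 6 passed -0.8 in both. The other Tenm4 probe sets went from a mean of 4616 to 1622 to 398 and from 1216 to 416 to 133. The second Gas1 probe set went from 8605 to 4249 to 1507, and that of Nrep from 3065 to 616 to 257.

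Some probe sets went against the first. A second Ksr1 probe set read 696, 229 and 266, so that its drug step was 0.20 and not -0.82. One of Tenm2 read 300.5, 57.8 and 182, but lay under 200 in both cultured groups. The 3 others of Car3 fell in culture to 92.8 or less, from 2265 in the brightest, and had drug steps of -0.28 to 0.02, so the drug step of Car3 rests on a single probe set. Of the probe sets that stood for the members, 3 have names ending in _s_at, 4 in _x_at and 7 in _a_at, endings that mark probes shared with related sequences or among transcripts of a gene.

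**Figure D5:**
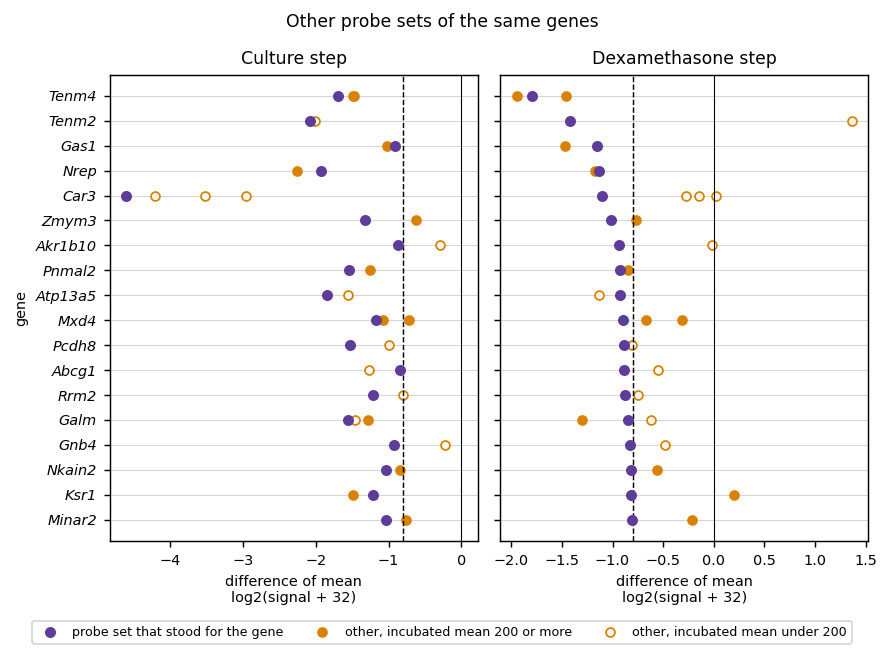
Differences of mean log2(signal + 32) in the culture step (left) and the dexamethasone step (right) for the probe set that stood for the gene (purple) and for other probe sets with a fresh mean of 200 or more (orange, open where the incubated mean was under 200), with dashed lines at -0.8. In culture all orange points lie left of 0, and with dexamethasone 3 lie right of it, for Tenm2, Ksr1 and Car3.

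The borders of the set were not gaps. Just inside the culture threshold were Akr1b10 at -0.87, Abcg1 at -0.84 and Tmem14a at -0.83, and just outside were Slc4a10 at -0.798, Fggy at -0.79 and Bbox1 at -0.78. Just inside the dexamethasone threshold were Ttc30b, Minar2 and Tmem14a, at -0.81, -0.81 and -0.80, and just outside were Col1a2 at -0.78, Ankrd44 at -0.78 and Tspoap1 at -0.77. For the signal floor of 200 in incubated tissue, Cmbl, Isg20 and Bche at 229, 237 and 250 were the nearest inside and Hs6st2, Dio2 and Fhit at 189, 187 and 184 the nearest outside. Slc4a10, a sodium bicarbonate transporter that missed the culture threshold, had means of 2306, 1315 and 161. By RefSeq the 42 genes lay on 19 chromosomes with at most 4 on any one.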

How the data were processed

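RNA from Reissner's membrane was measured on 9 one-colour Affymetrix arrays, 3 each for fresh, incubated and dexamethasone-treated tissue. Membranes were pooled, RNA was amplified by 2 rounds of in vitro transcription, and 3 chips were hybridised per biological sample, per the labels' protocols and design text. Each deposited value is the intensity signal of a probe set, scaled by the authors array by array to a target of 500, per the labels' descriptions; the software that summarised probes is not given in the sources used here. Of 45101 probe sets, 64 were controls, 34945 had 1 gene symbol (18193 genes), 932 had several and 9160 had none in the platform annotation.

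Signals were analysed as log2(signal + 32). No detection calls were used, and 200 was the working floor. Probe sets at 200 or more on at least 3 arrays (18913) were fitted in limma 3.58.1 (R 4.3.3) with 1 mean per group over 9 arrays, eBayes with an intensity trend and Benjamini-Hochberg adjustment, called at an adjusted p under 0.05. The fit was tested on simulated data. Members were tested in that fit only as part of the background and are given with the SE from their arrays. The members and the gene lists were chosen with earlier results of these data known, and role groups were assigned once membership was known. Counts over a list leave out members and left-out genes that met the thresholds. The culture counts include genes that entered the fit through their fresh arrays alone, which had to read lower. Full values are given for up to 4 genes per role group with the lowest dexamethasone minus fresh difference; list genes are named, 1 to 3 a list, from the 3 with the largest dexamethasone difference among those past the test, the largest always included, and others are marked as named after their values were seen. Alternatives were other scalings, pseudocounts, floors, thresholds, probe set choices, a replicate block and leaving out each array. Python 3.11.15, pandas 2.3.3, NumPy 2.4.6 and matplotlib 3.10.9 were used. The number of arrays limits the precision, and whether the arrays of a group come from separate pools is not known here.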

Additional observations from a re-analysis of the deposited data

How the results depend on the processing

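The number of genes that met the rule depended on its settings. It was 42 as reported, 104 when arrays were scaled to the hybridization controls, 23 with a pseudocount of 100, 27 with a signal floor of 400, 110 with a difference threshold of 0.6, 18 with a threshold of 1 and 23 when probe sets of a gene were averaged. It ranged from 32 to 57 under median centring, quantile normalization, a pseudocount of 1, a floor of 100, the probe set highest in fresh tissue and exclusion of _s_at, _x_at and _a_at probe sets. Leaving out 1 array gave 37 to 43 genes, and 26 of the 42 were kept without each array in turn. Quantile normalization kept 38 of the 42, and median centring and the hybridization controls kept 25 each. Of 1422 recomputed member differences 1174 moved by less than the spread between arrays, 247 moved more and 1 changed sign: the drug step of Ksr1 was 0.20 without _s_at, _x_at and _a_at probe sets, where another probe set stood for the gene. Under median centring Kcnk1 turned to 0.14 in culture, as it did on the hybridization controls (0.14).

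Over all probe sets, calls lower in culture were 4461 after median centring, 4274 on the hybridization controls and 11518 with no filter on low signals, where more probe sets were tested; calls lower with dexamethasone were 13572 on the hybridization controls. The cause of the shift between scalings was not tested. Leaving out 1 array gave 6028 to 7534 calls lower in culture and 4165 to 4655 lower with dexamethasone. Deviations of arrays with the same letter correlated between -0.06 and 0.16 across groups. Arrays with different letters were not correlated, so this does not settle whether the letters pair the arrays. With the letter as a replicate block, 7548 were lower in culture and 4759 with dexamethasone.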
